A study of Rattus norvegicus with 20 samples.

Results

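The transcripts of the mitochondrial genome were examined in choroid plexus RNA of 20 female Zucker rats. They were taken as every gene identifier whose symbol, in the gene tables supplied with the study, starts with Mt- or AY172581., which gave 16 of the 32883 gene identifiers in each file. Of these 16 genes, 13 carry the symbols of the mitochondrial proteins and 3 carry the clone name AY172581 with a number (AY172581.9, AY172581.24 and AY172581.21). The rule used names only and no measured value, but it was set with earlier results of these data known. The lean rats (+/fa) and the obese rats (fa/fa, homozygous for the leptin receptor mutation) were 16 weeks old, and the lean rats carried the mutation on 1 chromosome. A first cohort of 6 lean and 6 obese rats was not injected. In a second cohort, 4 lean control rats (titled Lean+VEH) received sesame oil and 4 obese + TT rats received 1 mg testosterone propionate in sesame oil, 2 times a week for 4 weeks. Each library came from the lateral and 4th ventricle choroid plexus of 1 rat. No lean rats received testosterone and no obese rats received the oil alone, so obesity and testosterone cannot be told apart in the second cohort.

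The clone-named genes are ENSRNOG00000030478 (AY172581.9), ENSRNOG00000043866 (AY172581.24) and ENSRNOG00000033545 (AY172581.21), and whether they are ribosomal or transfer RNA genes was not analysed here.

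Mitochondria keep a small circular genome of their own, read from both strands as long precursor RNAs that are cut into messenger, ribosomal and transfer RNAs. Its protein genes encode core subunits of the respiratory chain and the ATP synthase, and all other subunits are encoded in the nucleus and imported. Mt-nd6 lies on the opposite strand from the other protein genes, and the reading frames of Mt-atp8 and Mt-atp6, and of Mt-nd4l and Mt-nd4, overlap on shared messengers. The choroid plexus epithelium, which secretes cerebrospinal fluid, is rich in mitochondria.

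The authors deposited TPM (transcripts per 1000000), a length-normalised share of a library's transcripts that sums to 1000000, and the depth of the libraries cannot be known from it. The epithelial protein transcript Ttr took 31.2 to 39.0% of TPM in lean rats, 32.3 to 39.3% in obese rats, 27.2 to 30.5% in lean control rats and 25.8 to 29.5% in obese + TT rats. TPM are shares of a whole, so a difference in Ttr between cohorts moves the TPM of all other genes. Lean control rat 14 lay far from the other 7 injected rats on their first principal component (78.7, against -21.7 to 4.75) and had the fewest genes above 0 TPM (14968, where the other 19 libraries had 15609 to 16860). All 9 epithelial marker genes examined were above 0 TPM in every rat, the lowest value being 7.85 TPM for Otx2 in 1 obese rat. In whole tissue, fewer cells of a type and less RNA per cell cannot be told apart.

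**Figure D1:**
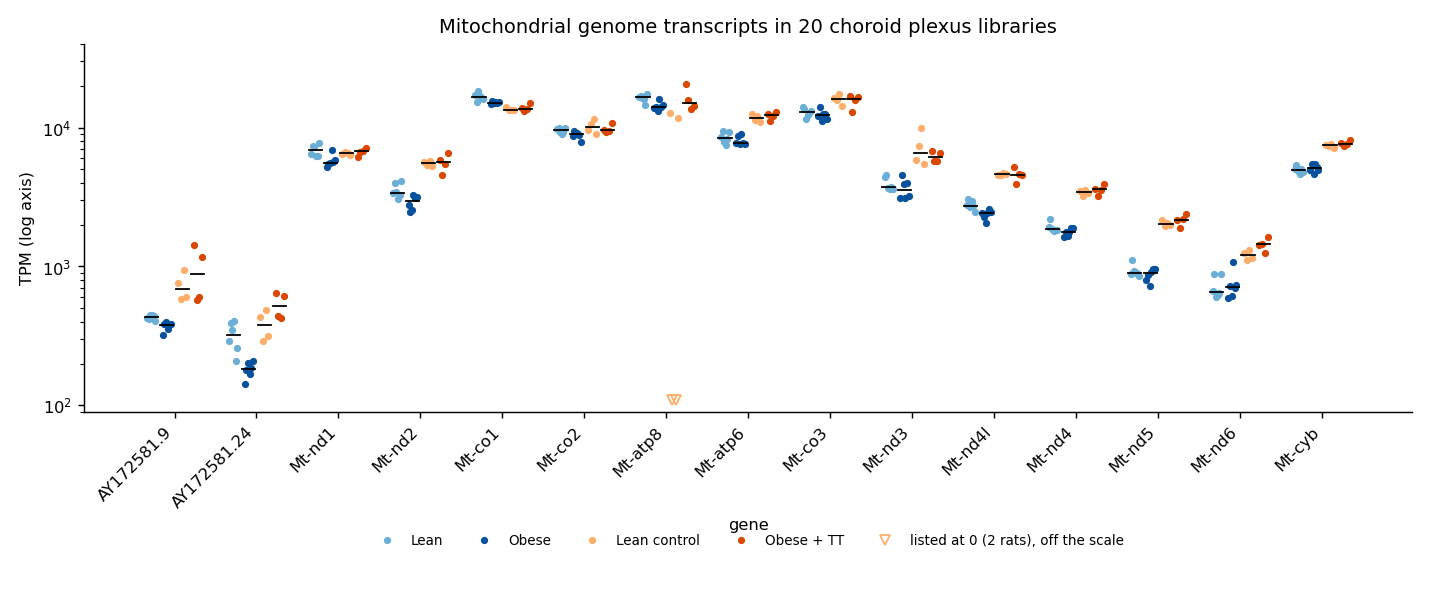
TPM (log axis) of 15 mitochondrial genome transcripts in each of the 20 rats, with 1 point per rat and a black line at the median of a group. Mt-co1, Mt-atp8 and Mt-co3 lie highest, AY172581.9 and AY172581.24 lowest, and the open triangles mark the 2 lean control rats in which Mt-atp8 is listed at 0.

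The transcripts spanned a wide range of levels. In lean rats, the medians ran from 16620.2 TPM for Mt-co1, the catalytic subunit of cytochrome c oxidase (complex IV), to 320 TPM for AY172581.24. AY172581.21 was listed at 0 in all 20 rats, so that 15 of the 16 genes could be tested. The other complex IV subunits, Mt-co3 and Mt-co2, had lean medians of 12975 and 9560.1 TPM. The ATP synthase (complex V) subunits Mt-atp8 and Mt-atp6 had lean medians of 16589 and 8395 TPM. Cytochrome b of complex III, encoded by Mt-cyb, was at 4943 TPM.

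The complex I (NADH dehydrogenase) genes covered the lower part of the range. Their lean medians were 6846 TPM for Mt-nd1, 3726 TPM for Mt-nd3, 3402 TPM for Mt-nd2 and 2736 TPM for Mt-nd4l. Below them lay Mt-nd4 at 1849.8 TPM, Mt-nd5 at 897 TPM and Mt-nd6 at 659 TPM. Neighbours in this order whose ranges over the 6 lean rats overlapped were Mt-co1 and Mt-atp8, Mt-co2 and Mt-atp6, Mt-atp6 and Mt-nd1, Mt-nd3 and Mt-nd2, Mt-nd2 and Mt-nd4l, Mt-nd5 and Mt-nd6, and AY172581.9 and AY172581.24. The obese rats had the same order of medians. In both injected groups Mt-co3, at 16079.6 and 16165 TPM, had the highest median. All 4 lean control rats had more Mt-co3 than Mt-co1, and the ranges did not overlap.

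The spread between replicate rats differed from gene to gene. The coefficient of variation (SD over mean) of Mt-co1 was 6.13% in lean, 1.72% in obese, 2.79% in lean control and 5.79% in obese + TT rats. That of AY172581.9 was 4.02, 7.42, 23.5 and 44.8%, so this gene varied little among rats not injected and widely among injected rats. AY172581.24 was at 24.4, 13.2, 24.8 and 21.6%, and Mt-nd6 at 18.0, 23.7, 7.15 and 10.4%.

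All 16 genes together took 8.63 to 9.47% of TPM in the lean rats (median 9.11%) and 7.82 to 8.72% in the obese rats (median 8.18%). They took 8.96 to 10.4% in lean control rats (median 9.66%) and 9.83 to 11.5% in obese + TT rats (median 10.8%). The obese rats had the lowest median and the obese + TT rats the highest, and these groups did not overlap, while the lean and obese ranges did. Of the TPM other than Ttr, the medians were 13.6, 12.3, 13.4 and 14.7% in the same order of groups. On that base the lean control and lean medians were closer together, and the lower of the 2 was that of the lean control rats. These shares include Mt-atp8, which is listed at 0 in 2 lean control rats and so lowers their shares. The share without Mt-atp8 was not taken on the base without Ttr, so whether this order holds without those values was not checked. The other 12 protein genes, with the clone-named genes left out, were therefore also taken as a share of the TPM other than Mt-atp8. That share was 7.08 to 7.83% in lean, 6.53 to 7.24% in obese, 8.41 to 9.59% in lean control and 8.27 to 9.76% in obese + TT rats. These sums over the genes were not tested.

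**Figure D2:**
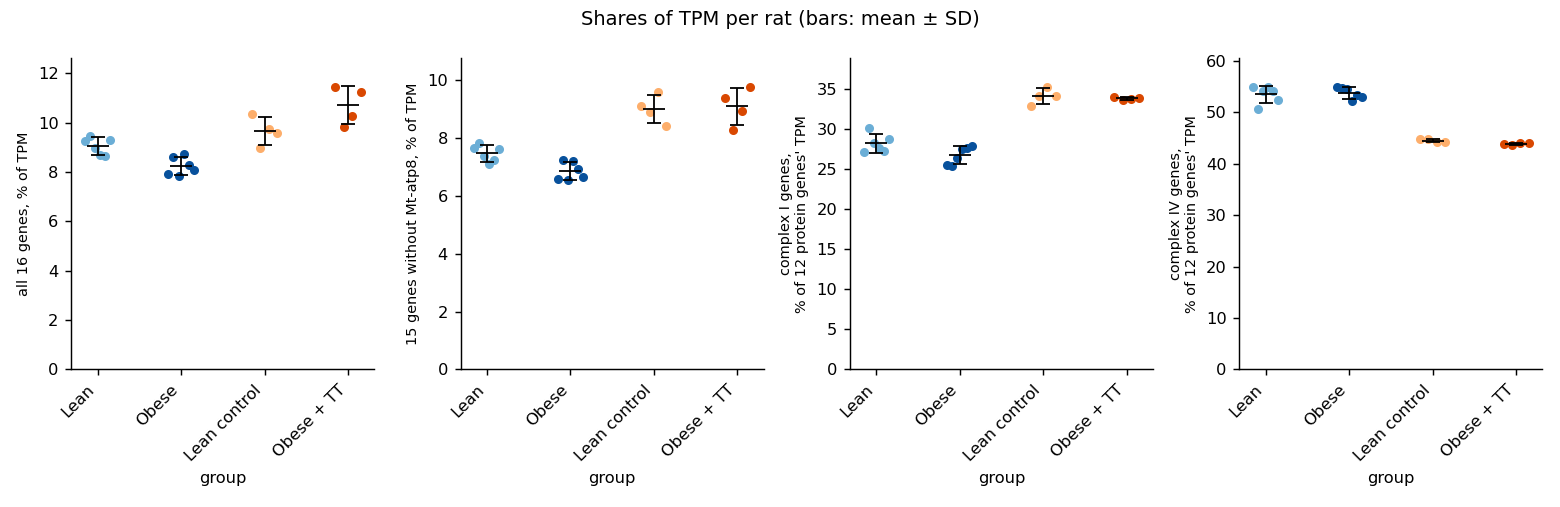
Shares of TPM in each rat for all 16 genes and for the 12 protein genes other than Mt-atp8 (of the TPM other than Mt-atp8), and for the complex I and complex IV genes as a percentage of these 12 (1 point per rat, bars mean ± SD, n = 6, 6, 4 and 4). The axis of the second panel is labelled as 15 genes, but only the 12 protein genes are drawn. The complex I share lies at 25.4 to 30.2% in the rats not injected and at 32.9 to 35.3% in the injected rats, and the complex IV share at 50.6 to 54.9% and 43.5 to 44.8%.

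The first comparison asked whether obesity itself goes with different transcript levels in rats not injected. Most mitochondrial transcripts had slightly lower means in the obese rats, and none passed the test. Differences are given on the log2(TPM + 0.1) scale, obese minus lean, and were tested with limma across all genes with Benjamini-Hochberg adjustment. Of the 15176 genes tested, 0 (0%) had an adjusted p under 0.05, and 0 of the 15 mitochondrial genes did. An unadjusted p under 0.05 was found for 7 of the 15, all lower in obese rats, where 3.75% of all genes tested were lower and 9.66% were on either side. Of the 15, 13 had a difference below 0, where 44.3% of all genes did. Their median was -0.11, beside 0.021 for all genes tested. The study, with DESeq2 on counts, reported differentially expressed genes at the same threshold in this contrast and in the injected cohort. The absence of calls here therefore holds for limma on log2 TPM only.

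AY172581.24 differed most. Its lowest, median and highest values were 210.1, 320 and 406 TPM in the lean rats and 142, 183 and 209 TPM in the obese rats. The groups did not overlap, but the lowest lean rat, at 210.1 TPM, was close to the highest obese rat, at 208.5 TPM. The means were 318 ± 77.5 and 181 ± 23.8 TPM (SD, n = 6 per group), a log2 difference of -0.78 (SE 0.15, adjusted p = 0.133 from limma). An exact two-sided permutation test of this gene alone gave p = 0.00216, the smallest that 6 rats against 6 allow.

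AY172581.9 was the other gene without overlap. Its lowest, median and highest values were 403, 431 and 448 TPM in lean and 321, 381 and 395 TPM in obese rats, a log2 difference of -0.22 (SE 0.057, adjusted p = 0.272 from limma). Of all genes tested, 0.244% were lower without overlap. These 2 were the clone-named genes with a value above 0, and the groups overlapped in all 13 protein genes.

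Among the protein genes, those of complex I differed unevenly. Mt-nd2 averaged 3543 ± 432 TPM in the lean and 2888 ± 350.4 TPM in the obese group (SD, n = 6 per group), a log2 difference of -0.30 (SE 0.094, adjusted p = 0.319 from limma). Mt-nd1 was at 6908 ± 668 and 5763 ± 565 TPM, with -0.26 (SE 0.079, adjusted p = 0.302), and Mt-nd4l was at 2779.6 ± 218 and 2369 ± 187 TPM, with -0.23 (SE 0.068, adjusted p = 0.295). The other 4 complex I genes, Mt-nd3, Mt-nd4, Mt-nd5 and Mt-nd6, had differences of -0.11, -0.11, -0.093 and 0.036. The sign for Mt-nd6 was below 0 in 3 of 12 fits with a rat left out, without lean rat 3, lean rat 4 or obese rat 10 (-0.079 without the last).

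In complex IV, Mt-co1 averaged 16709 ± 1024 TPM in the lean and 15116 ± 260.5 TPM in the obese group, a log2 difference of -0.14 (SE 0.057, adjusted p = 0.448 from limma). Mt-co2 and Mt-co3 had differences of -0.11 and -0.073. In complex V, Mt-atp8 was at 16373 ± 990.4 and 14308 ± 921 TPM, with -0.19 (SE 0.064, adjusted p = 0.345), and Mt-atp6 had -0.073. Mt-cyb was at 4963 ± 259 and 5147 ± 334 TPM, the larger of the 2 differences above 0 (0.051, SE 0.059, adjusted p = 0.824). Adjusted p-values of the 15 genes stayed above 0.05 in every alternative run.

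**Figure D3:**
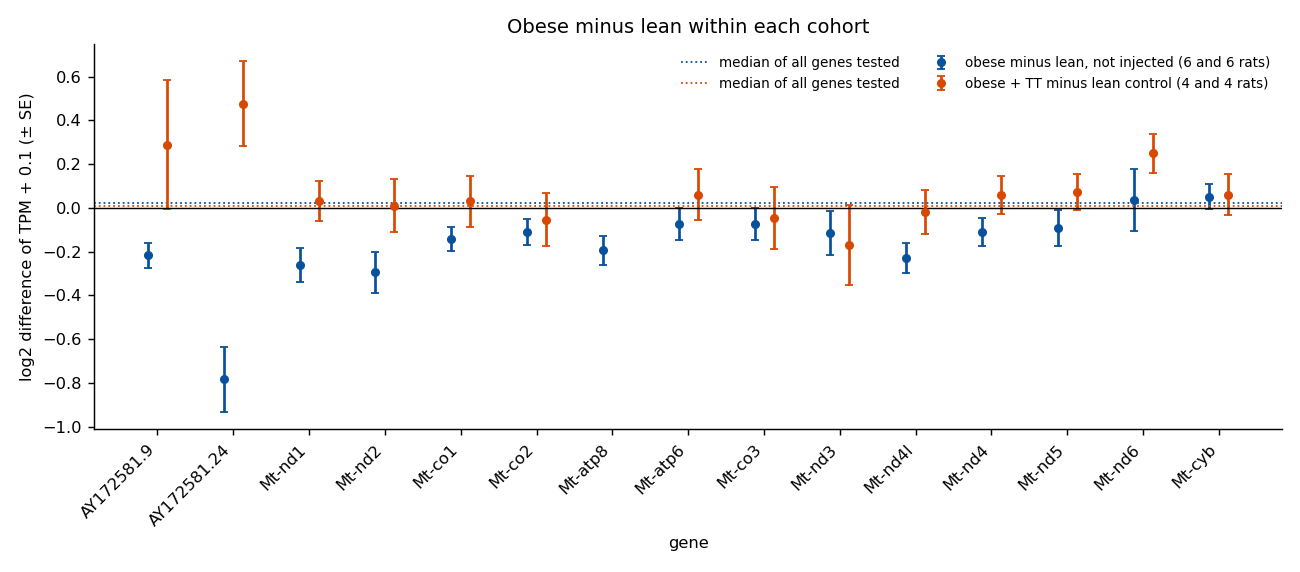
Log2 difference of TPM + 0.1 (± SE) for 15 mitochondrial genome transcripts, obese minus lean in rats not injected (6 and 6 rats) and obese + TT minus lean control (4 and 4 rats), with dotted lines at the median of all genes tested. AY172581.24 lies at -0.78 in the first and 0.48 in the second contrast, most other genes lie within 0.3 of 0, and Mt-atp8 is not drawn for the second contrast because of its values listed at 0.

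The second comparison asked the same of obese + TT against lean control rats. Transcript levels of most mitochondrial genes lay close together in these groups, and none passed the test. Of 15259 genes tested with limma, 0 (0%) had an adjusted p under 0.05, and 0 of the 15 mitochondrial genes did. An unadjusted p under 0.05 was found for 3 of the 15, all higher in obese + TT rats, where 4.25% of all genes were higher and 7.43% were on either side. These were AY172581.24, Mt-nd6 and Mt-atp8. Of the 15, 11 had a difference above 0, where 52.6% of all genes did. Their median was 0.060, beside 0.0092 for all genes.

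AY172581.24 was at 436, 289, 489 and 318 TPM in lean control rats 13 to 16 and at 647, 438, 424 and 608 TPM in obese + TT rats 17 to 20. The groups overlapped, and the log2 difference was 0.48 (SE 0.19, adjusted p = 0.646 from limma). Mt-nd6 was at 1253, 1122, 1307 and 1151 TPM and 1431, 1451, 1257 and 1623 TPM, with a difference of 0.25 (SE 0.089, adjusted p = 0.594). For Mt-nd6 1 obese + TT rat lay within the lean control range, and the exact two-sided permutation test gave p = 0.0571, where the smallest that 4 rats against 4 allow is 0.0286. Mt-atp8 was the only one of the 15 without overlap, higher in obese + TT rats, as were 2.37% of all genes, and lean control rats 13 and 16, in which it is above 0, were also below all obese + TT rats.

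AY172581.9 was at 762, 580.4, 950.3 and 607 TPM in lean control and 1419.6, 572, 601 and 1168 TPM in obese + TT rats. Rats 17 and 20 were above all lean control rats, rat 19 was among them and rat 18 was below them, and the difference was 0.29 (SE 0.30). Rats 17 and 20 were also the higher of the obese + TT rats in AY172581.24, and rats 13 and 15 the higher of the lean control rats in both. The remaining 11 protein genes had differences between -0.17 (Mt-nd3) and 0.073 (Mt-nd5), with adjusted p-values of at least 0.863. Mt-nd3 was at 5862, 7321, 9967 and 5474 TPM in lean control and 6796, 5751, 5739 and 6529 TPM in obese + TT rats, and lean control rat 15 was above all other 19 rats. Without rat 15 the difference was 0.0037.

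The difference between the 2 contrasts was tested in 1 fit of all 20 libraries. Of 15406 genes tested, 0 (0%) passed, and 0 of the 15 mitochondrial genes did. An unadjusted p under 0.05 was found for 3 of the 15, all with a higher difference in the injected rats, where 3.79% of all genes were on that side and 8.36% on either. The contrasts differed most in AY172581.24, by 1.26 (SE 0.26, unadjusted p = 9.65e-05, adjusted p = 0.168 from limma). It was at -0.78 in the rats not injected and 0.48 in the injected rats. Mt-nd1 differed by 0.29 (SE 0.12, adjusted p = 0.517). The third was Mt-atp8, for which the values listed at 0 set the size. Without lean control rats 14 and 15 its difference was 0.57 (adjusted p = 0.342). The second contrast adds testosterone, injections and another cohort, which cannot be told apart.

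The cohorts were then compared at the same genotype. Lean control against lean rats differ in cohort and oil injections, and obese + TT against obese rats in cohort, injections and testosterone, and in each pair these cannot be told apart. Both pairs reuse the libraries of the obese against lean contrasts, but share no library with each other. Most mitochondrial transcripts were higher in the injected rats, among the protein genes by the most for Mt-nd5, while Mt-co1 was lower in lean control rats. In lean control against lean rats, 12 of the 15 were called, 10 higher and 2 lower (limma, adjusted p under 0.05), where 58.2% of the 15326 genes tested were called, 41.7% higher and 16.5% lower. The 2 lower were Mt-co1 and Mt-atp8. In obese + TT against obese rats, 12 of the 15 were called, all higher, where 58.1% of the 15389 genes tested were called, 41.7% higher and 16.4% lower. The values did not overlap for 12 of the 15 in the lean pair (44.8% of all genes), and for 10, all higher, in the obese pair (34.1% of all genes higher). The medians of the mitochondrial genes were 0.58 and 0.77, beside 0.24 and 0.25 for all genes tested.

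Of complex I, 6 of the 7 genes rose in lean control rats and all 7 in obese + TT rats. Mt-nd5 had the lowest, median and highest values 861, 897 and 1109 TPM in lean and 720.2, 895 and 962 TPM in obese rats. It was at 2160.2, 1968, 2039 and 2004 TPM in lean control and 2154, 1900.4, 2189 and 2372 TPM in obese + TT rats. Every injected rat was above every rat not injected. The log2 differences were 1.14 (SE 0.076, adjusted p = 2.01e-07 from limma) for the lean pair and 1.31 (SE 0.092, adjusted p = 7.79e-07) for the obese pair, 2.20-fold and 2.47-fold in mean TPM.

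Mt-nd4 had the values 1794, 1849.8 and 2192 TPM in lean and 1620.1, 1763 and 1901 TPM in obese rats (lowest, median, highest), and 3512, 3238, 3575 and 3388 TPM and 3639.6, 3212, 3570.4 and 3898 TPM in the injected groups. It rose by 0.85 (SE 0.073, adjusted p = 1.21e-06) and 1.02 (SE 0.073, adjusted p = 8.28e-07), again with no overlap. Mt-nd4l, which shares a messenger with Mt-nd4, rose by 0.73 and 0.94. Mt-nd2 rose by 0.65 and 0.96, Mt-nd3 by 0.83 and 0.77, and Mt-nd6, from the other strand, by 0.77 and 0.98. Mt-nd1 was the exception in the lean pair, at 6908 ± 668 TPM (SD, n = 6) and 6543 ± 141 TPM (SD, n = 4), a difference of -0.073 (SE 0.090, adjusted p = 0.508 from limma). In the obese pair it rose by 0.22 (SE 0.083, adjusted p = 0.0391), a call lost in 8 of 10 fits with a rat left out. These were the fits without obese rats 7, 8, 9, 11 or 12 or obese + TT rats 18, 19 or 20, and the adjusted p ran up to 0.107. The Mt-nd1 call was also lost with no minimum on the mean TPM (adjusted p = 0.113), with no variance trend (adjusted p = 0.0545) and with scaling without Ttr (0.064, adjusted p = 0.598).

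Mt-cyb of complex III rose by 0.58 (SE 0.074, adjusted p = 2.92e-05 from limma) in the lean pair, from 4963 ± 259 TPM (SD, n = 6) to 7399 ± 222 TPM (SD, n = 4). In the obese pair it rose by 0.59 (SE 0.070, adjusted p = 2.60e-05), from 5147 ± 334 TPM (SD, n = 6) to 7719.9 ± 352 TPM (SD, n = 4). The 3 complex IV genes went different ways. Mt-co1 fell by 0.30 (SE 0.092, adjusted p = 0.0151) in lean control rats, where it was at 14157, 13424, 13478 and 13327 TPM, all below the lean range of 15356 to 18337 TPM. With no minimum on the mean TPM this call was lost (adjusted p = 0.187). In the obese pair Mt-co1 had a difference of -0.12 (SE 0.069, adjusted p = 0.146), and was called lower with the robust option (adjusted p = 0.0473), with scaling without Ttr (-0.28, adjusted p = 0.00418) and with libraries centred. Mt-co2 had differences of 0.087 and 0.14, neither called. Mt-co3 rose by 0.30 (adjusted p = 0.0205) and 0.33 (adjusted p = 0.0117), and in the lean pair this call was lost without lean rat 3 (0.27) or lean control rat 15 (0.26). The Mt-co3 calls were also lost in both pairs with no minimum on the mean TPM (adjusted p = 0.173 and 0.0738) and with scaling without Ttr (0.19, adjusted p = 0.130, and 0.17, adjusted p = 0.122), and in the lean pair without rats 14 and 15 (0.25, adjusted p = 0.0875). Mt-atp6, the proton channel subunit of complex V, rose by 0.47 (SE 0.096) and 0.60 (SE 0.079). Mt-atp8 had a difference of 0.15 (SE 0.11, adjusted p = 0.264) in the obese pair. In the lean pair it was called lower with the values listed at 0, a call lost without rat 14 or rat 15 alone, with no variance trend (adjusted p = 0.0523) and with the robust option (adjusted p = 0.0782), and kept without both rats (-0.42, adjusted p = 0.00661).

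Of the 15 genes, AY172581.24 rose most in the obese pair, by 1.53 (SE 0.14, adjusted p = 4.26e-06 from limma), 2.92-fold in mean TPM. In the lean pair it had a difference of 0.27 (SE 0.20, adjusted p = 0.257), and the groups overlapped. AY172581.9 rose by 0.73 (SE 0.12, adjusted p = 1.80e-04) and 1.23 (SE 0.22, adjusted p = 5.31e-04).

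**Figure D4:**
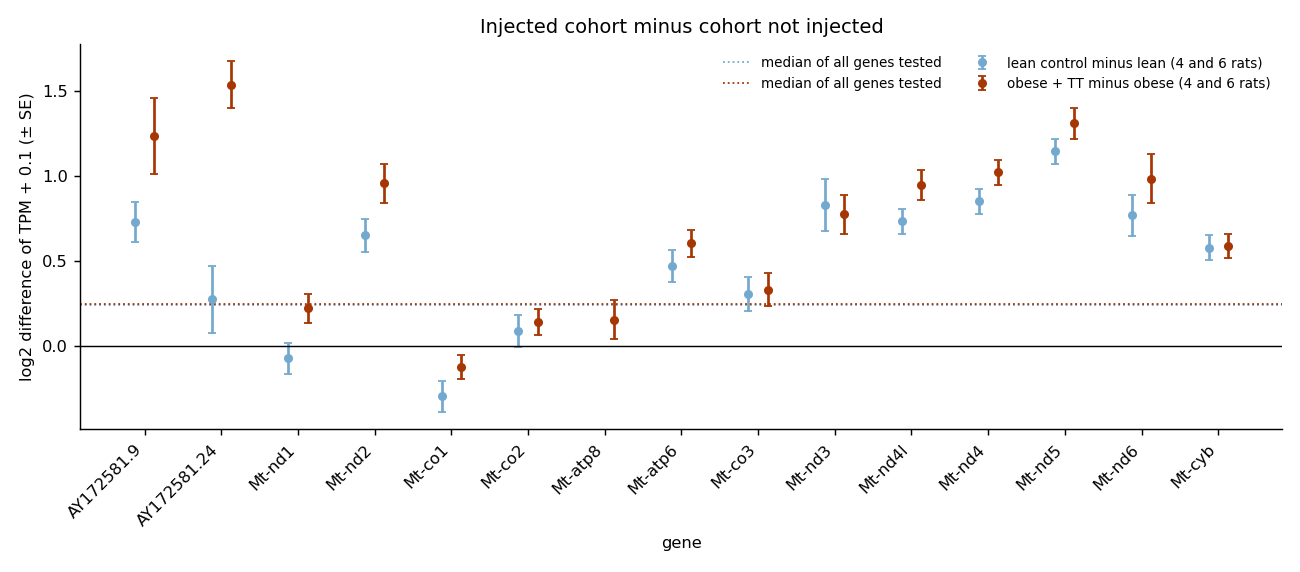
Log2 difference of TPM + 0.1 (± SE) between the injected cohort and the cohort not injected, lean control minus lean and obese + TT minus obese (4 and 6 rats each), with dotted lines at the median of all genes tested (0.24 and 0.25). Mt-nd5 lies highest of the protein genes, at 1.14 and 1.31, Mt-co1 lies lowest of the genes drawn, and Mt-atp8 is drawn for the obese pair only.

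How many mitochondrial genes were called between cohorts depended on the scale. With each library centred on the median of its tested genes, the median difference of all genes moved from 0.24 to -0.17 in the lean pair and from 0.25 to -0.13 in the obese pair, and the share of calls that were higher moved from 71.6 to 36.4% and from 71.8 to 39.3%. On that scale 5 of the 15 mitochondrial genes were called higher and 4 lower in lean control rats, beside 22.1% and 38.6% of all genes tested. In obese + TT rats 8 were called higher and 1 lower, beside 22.5% and 34.7%. Mt-nd4l, Mt-nd4, Mt-nd5, Mt-nd6 and AY172581.9 were called higher in both pairs on both scales. On the centred scale Mt-nd5 differed by 0.73 (adjusted p = 8.50e-06 from limma) and 0.94 (adjusted p = 5.96e-06). Mt-co1 differed by -0.71 (adjusted p = 2.32e-04) and -0.49 (adjusted p = 0.00442). In lean control rats, Mt-nd1 (-0.48, adjusted p = 0.00275) and Mt-co2 (-0.32, adjusted p = 0.0403) were called lower on the centred scale only. Mt-cyb, Mt-atp6 and Mt-co3 lost their calls in both pairs, Mt-nd2 and Mt-nd3 in the lean pair and Mt-nd1 in the obese pair, and the sign of Mt-co2 and Mt-co3 turned in both.

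Markers of the epithelium and of other cell types moved with the cohorts as well. All 9 choroid plexus epithelial markers have a symbol, of which 8 rose in lean control rats and 6 rose and 1 (Ttr) fell in obese + TT rats. Of all genes tested, 41.7% rose in each pair, and 16.5 and 16.4% fell. Their median differences were 0.59 and 0.63, and 0.18 and 0.25 with libraries centred. Their summed TPM, mostly Ttr, was 319853 to 397168 in lean, 331260 to 400532 in obese, 284648 to 316795 in lean control and 270657 to 307511 in obese + TT rats. Of 6 fibroblast markers 3 have a symbol. Dcn fell (-3.08 and -3.22) and Col1a1 fell (-3.10 and -3.11), while Pdgfra rose by 1.31 and 1.08, and their sum was 107 to 139, 107 to 150.1, 51.1 to 91.0 and 62.9 to 79.3 TPM.

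Plvap, 1 of 5 endothelial markers with a symbol, ranged over 40.0 to 51.1, 43.4 to 60.3, 1.68 to 10.6 and 3.46 to 6.74 TPM, and fell (-3.41 and -3.43 on the log2 scale). Gja1, 1 of 5 astrocyte markers, ranged over 5.21 to 7.39, 4.79 to 9.12, 1.21 to 2.47 and 2.94 to 3.39 TPM. The 4 of 6 erythroid markers with a symbol, from red cells that lack mitochondria when mature, summed to 3105 to 5471, 4052 to 7019, 2168 to 5768 and 4799 to 8388 TPM, and 0 of the 4 were called in any contrast. At an unadjusted p under 0.05, 4 of the 4 were higher in obese than in lean rats and 3 in obese + TT than in lean control rats, with medians of 0.42 and 1.13. Of all genes tested, 897 of 15176 and 648 of 15259 were higher at that threshold. None of the markers with a symbol was listed at 0 in any rat, and 0 of the macrophage, neuron and ependyma markers have a symbol here. The part of cell makeup in the differences of the mitochondrial transcripts was not tested.

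Ratios of transcripts within a rat do not depend on the scale of its library. Mt-nd5 per Mt-nd1 was 0.110 to 0.150 in lean and 0.130 to 0.170 in obese rats, and 0.293 to 0.334 in lean control and 0.286 to 0.350 in obese + TT rats. All 8 injected rats were above all 12 others. Mt-nd4 per Mt-nd1 was 0.235 to 0.298 and 0.258 to 0.338, against 0.482 to 0.543 and 0.483 to 0.592, and Mt-cyb per Mt-co1 was 0.265 to 0.351 and 0.312 to 0.362, against 0.531 to 0.563 and 0.544 to 0.563. These also separated the cohorts, as did Mt-nd2 per Mt-nd1 and Mt-co2 and Mt-co3 per Mt-co1. Each of these ratios sets a gene with a higher cohort difference over one with a lower difference, so the separation follows from the differences above. Mt-nd6 per Mt-nd5 was 0.655 to 1.02, 0.734 to 1.17, 0.570 to 0.641 and 0.574 to 0.764 in the same order of groups, with overlap between the cohorts. Mt-nd4l per Mt-nd4, which share a messenger, was 1.35 to 1.66, 1.25 to 1.50, 1.29 to 1.42 and 1.17 to 1.42, and neighbouring groups overlapped. AY172581.24 per AY172581.9 was 0.481 to 0.938 in lean and 0.441 to 0.539 in obese rats, and 0.498 to 0.572 and 0.456 to 0.767 in the injected groups, with overlap between the cohorts.

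The makeup of the mitochondrial messengers differed between the cohorts. Of the TPM of the 12 protein genes other than Mt-atp8, complex I took 28.2 ± 1.14% in the lean and 26.7 ± 1.12% in the obese group (SD, n = 6 per group), and 34.1 ± 0.992% in the lean control and 33.8 ± 0.165% in the obese + TT group (SD, n = 4 per group). Complex IV took 53.5 ± 1.68, 53.7 ± 1.16, 44.5 ± 0.339 and 43.8 ± 0.224%. Neither overlapped between cohorts. Mt-cyb took 6.42 to 7.11% in lean and 7.25 to 7.78% in obese rats, with no overlap, a ratio singled out after its values were seen. It took 7.91 to 8.53% in lean control and 8.43 to 9.03% in obese + TT rats, which overlapped. None of these shares was tested. The libraries of the cohorts also differed in the factor between the deposited FPKM and TPM, which was 1.11 to 1.22 and 1.11 to 1.20 in rats not injected and 0.921 to 0.995 and 0.942 to 0.974 in injected rats, and its part in the result was not tested.

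Mt-atp8, a small subunit of the ATP synthase, was listed at 0 in lean control rats 14 and 15. The other lean control rats, 13 and 16, had 12730 and 11719 TPM, the lean rats 14553 to 17410 TPM, the obese rats 13166 to 15947 TPM and the obese + TT rats 13673 to 20675 TPM. Mt-atp6, whose reading frame overlaps that of Mt-atp8, was at 12574, 11255, 12061 and 11011 TPM in lean control rats 13 to 16. For Mt-atp6 rats 14 and 15 lay between rats 16 and 13. Of the 112 genes that reached 1000 TPM in a rat, Mt-atp8 was the only one with a value of 0, and of the 1210 genes that reached 100 TPM, 10 had such a value. Among these 10 was Mrpl33, a mitochondrial ribosomal protein gene of the nucleus, listed at 0 in rats 14, 15 and 17 and singled out after its values were seen. A value of 0 can be a failed estimate, and no mean or fold of Mt-atp8 alone that includes these values is given. The counts of genes called or without overlap, taken with all rats, do include Mt-atp8 with these values.

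Where Mt-atp8 was above 0, its ratio to Mt-atp6 was 1.76 to 2.15 in lean rats and 1.63 to 1.92 in obese rats. It was 1.01 and 1.06 in lean control rats 13 and 16 and 1.09 to 1.64 in obese + TT rats, where only rat 17 reached the lowest obese value. The FPKM holds the same ratios by construction, because it is the TPM times 1 factor per rat. Reads in the overlap of the reading frames can be split between these genes, and how far they were cannot be seen from TPM. A fit without rats 14 and 15, chosen after seeing the data, leaves only lean control rats 13 and 16. In it, 9 of the 15 genes were called higher and 2 lower in lean control against lean rats. Beside them, 39.6% of all genes tested were called higher and 12.7% lower.

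**Figure D5:**
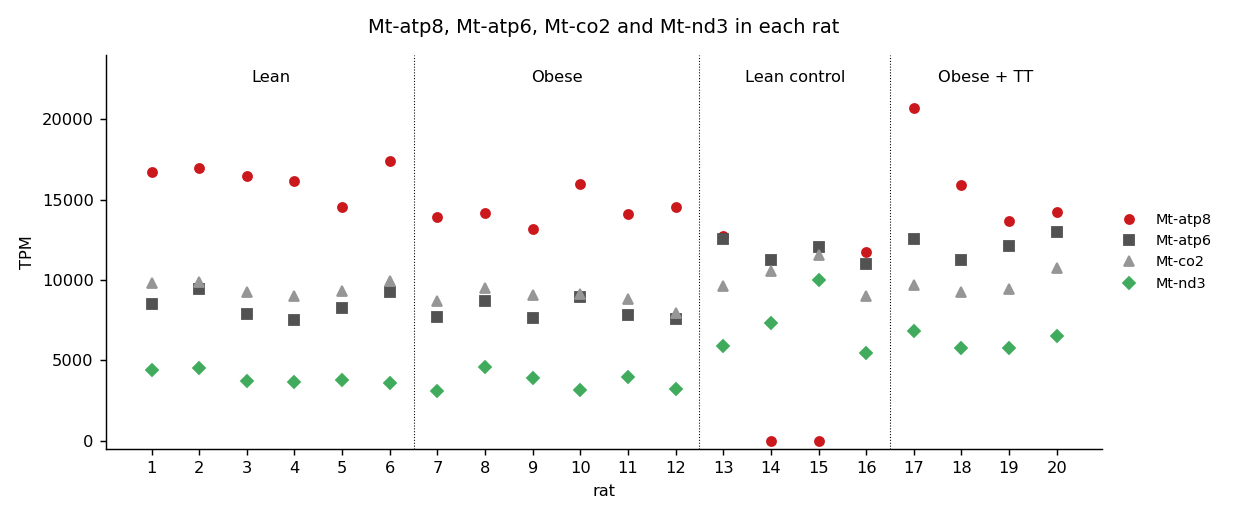
TPM of Mt-atp8, Mt-atp6, Mt-co2 and Mt-nd3 in each of the 20 rats, with dotted lines between groups. Mt-atp8 is at 0 in lean control rats 14 and 15 while the other 3 genes are not, and Mt-nd3 is highest in rat 15, at 9967 TPM.

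The nuclear genes of the same complexes were set beside them. Of 83 nuclear gene symbols listed under complexes I to V, 73 have a symbol in the tables used (74 gene identifiers), and all were tested. None was called in the obese against lean contrasts (0% of all genes were). At an unadjusted limma p under 0.05 there were 0 in the rats not injected, beside 9.66% of all genes. In obese + TT rats there were 8, all lower, where 486 of the 15259 genes tested were lower. Between cohorts they went mostly the other way from the mitochondrial genes. In lean control against lean rats 3 rose and 31 fell of the 74 (median -0.13), and in obese + TT against obese rats 5 rose and 45 fell (median -0.24). Among all genes tested, 41.7% rose in each pair, and 16.5 and 16.4% fell. With scaling without Ttr the medians were -0.24 and -0.40, and centred they were -0.54 and -0.61, with 72 of the 74 below 0 in each pair. With summed TPM, the 12 mitochondrial messengers per 70 nuclear genes of complexes I, III, IV and V had a ratio of 1.61 to 2.06 in lean and 1.47 to 1.89 in obese rats. It was 2.18 to 2.63 in lean control and 2.26 to 2.92 in obese + TT rats, with no overlap between cohorts. For complex I alone the medians were 1.77, 1.49, 3.03 and 3.14, and for complex IV 3.11, 2.87, 3.66 and 3.94.

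Of the 33 nuclear complex I genes, 0 rose and 13 fell in the lean pair and 1 rose and 19 fell in the obese pair. Beside the counts of each complex, 41.7% of all genes tested rose in each pair, and 16.5 and 16.4% fell. Ndufc1 fell (-0.98 and -0.86 on the log2 scale), and Ndufb8, Ndufa12, Ndufa6 and Ndufb6 fell in both pairs. The most abundant, Ndufb4, Ndufa13 and Ndufa11, had differences of -0.029, -0.35 and -0.053 in the obese pair, of which that of Ndufa13 was called. Ndufs1 was the one that rose in the obese pair (0.19). Complex II has no mitochondrial subunit, and of its 4 genes Sdhb, Sdhc and Sdhd fell and Sdha rose in both pairs. Of the 9 complex III identifiers, 1 rose and 5 fell in each pair, among the latter Uqcr11, Uqcrq and Cyc1, while Uqcrh passed in neither. Uqcrb stands for 2 identifiers that went opposite ways, both called in both pairs, the more abundant at -0.69 and -1.08 and the other at 0.57 and 0.54.

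Of the 11 nuclear genes listed under complex IV, 0 rose and 5 fell in the lean pair and 1 rose and 8 fell in the obese pair. The shares for all genes tested were 41.7% higher in each pair, and 16.5 and 16.4% lower. Cox6a1 fell (-0.47 and -0.63) and Cox8a fell (-0.41 and -0.54). Cox7a2l also fell in both, while Cox6c, Ndufa4 and Cox7c fell in the obese pair, and Cox6b1 rose there (0.23). Of the 17 nuclear genes listed under complex V, 1 rose and 5 fell in the lean pair, and 1 rose and 10 fell in the obese pair. Atp5me, the most abundant, was the one that rose, by 0.45 and 0.38. Atp5if1, Atp5po, Atp5mc1 and Atp5pd fell in both pairs, Atp5mf fell in the obese pair, and Atp5f1e had 0.16 and -0.026.

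Of 77 mitochondrial ribosomal protein symbols, 36 have a symbol here, of which 1 rose and 21 fell in the lean pair and 0 rose and 25 fell in the obese pair. Of all genes tested, 16.5 and 16.4% fell. Mrps18a fell (-0.69 and -0.59) and Mrpl54 fell (-0.75 and -0.90), and Mrps7, Mrpl43 and Mrps16 fell in both. Mrps6 and Mrps21, among the most abundant, fell in the obese pair. Mrpl33, with its values listed at 0, is counted among the 21. Of 35 genes listed for mitochondrial RNA synthesis and processing only 3 have a symbol here, so this list was not described further than its members. Hsd17b10, a subunit of the mitochondrial RNase P, fell (-0.41 and -0.37). Esrra, a nuclear receptor of mitochondrial biogenesis, rose by 0.32 in the lean pair and had 0.17 (adjusted p = 0.149 from limma) in the obese pair. Supv3l1, an RNA helicase, had -0.11 and 0.13.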

How the data were processed

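RNA of the choroid plexus, 1 library per rat, was prepared with the NEB Next Ultra kit and sequenced paired-end. Strandedness was not given in the sources used here. Per the labels, reads were mapped to Rnor_6.0 with STAR 2.7.9a, and the submitters' processing notes name RSEM 1.3.3 and DESeq2 3.16. The authors deposited TPM and FPKM for 32883 Ensembl genes per rat, and no comparison columns. The FPKM is the TPM times 1 factor per rat. Counts were not used here. How reads shared by overlapping genes or nuclear copies of mitochondrial sequence were assigned was not given in the sources used here.

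Symbols came from the study's supplementary gene tables, which are shortened here and name 2616 identifiers. All 16 mitochondrial genes were named, and of the nuclear lists the 3 most abundant members and up to 5 called ones. The members and 15 lists (242 genes) were chosen with earlier results of these data known. Genes averaging 0.1 TPM or more were tested on log2(TPM + 0.1), which understates changes of low genes, by limma 3.58.1 in R 4.3.3 with trend, Benjamini-Hochberg adjustment and a threshold of 0.05. The test was checked on simulated data. Each member also had an exact two-sided permutation test per contrast, 60 in all. Tables and figures used Python 3.11.15, pandas 2.3.3 and matplotlib 3.10.9. Alternatives changed the pseudocount, minimum, trend, robust option, libraries and scale. That without lean control rats 14 and 15 was chosen after seeing the data.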

Additional observations from a re-analysis of the deposited data

Results flagged for a closer look

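In 76 groups of values checked, 3 held a value far from the rest, where about 4 would be found by chance at 1 in 20. In lean rat 2, Mt-nd4 reached 2191.77 TPM (the remaining lean rats had 1793.95 to 1912.06) and Mt-nd5 reached 1109.35 TPM (the remaining 860.58 to 924.36). In obese rat 10, Mt-nd6 reached 1080.46 TPM (the remaining obese rats had 595.08 to 734.75). All 3 are complex I genes.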

How the results depend on the processing

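No paired analysis was possible because the rats are numbered 1 to 20 and no number is shared between groups. No mitochondrial gene was called in either obese against lean contrast, or in the difference between them, under any alternative run, fits without 1 rat included. Counts over all genes were 3 (all 20 libraries in 1 fit) and 1 (centred) in the rats not injected, 6 (all 20 libraries) and 8 (without rats 14 and 15) in the injected rats. For the difference they were 1 (minimum mean of 1 TPM), 1 (robust), 10 (without Ttr), 5 (centred) and 10 (without rats 14 and 15). Leaving out 1 rat gave 0 to 1, 0 to 25 and 0 to 14, the highest of the last 2 without lean control rat 13. Under scaling without Ttr, the obese + TT against lean control differences turned to -0.00073 (Mt-nd1), -0.022 (Mt-nd2) and -0.0022 (Mt-co1), those of the lean pair to -0.022 (Mt-co2), those of the obese pair to -0.0135 (Mt-co2) and -0.0014 (Mt-atp8), and the difference of contrasts to -0.020 (Mt-co3) and -0.038 (Mt-cyb). Centring turned the lean pair to -0.14 (AY172581.24), -0.32 (Mt-co2) and -0.11 (Mt-co3), and the obese pair to -0.15 (Mt-nd1), -0.23 (Mt-co2), -0.22 (Mt-atp8) and -0.042 (Mt-co3). Without rats 14 and 15, Mt-co2, Mt-co3 and Mt-nd3 were at 0.070, 0.011 and 0.13 in obese + TT against lean control rats, Mt-co2 at -0.038 in the lean pair, and Mt-nd3 at 0.24 in the difference. Mt-atp6 and Mt-atp8 added up had -0.57 in the lean pair, the values listed at 0 included. Signs also turned when 1 rat was left out, over ranges of -0.079 to 0.099 (Mt-nd6) in the rats not injected. In obese + TT against lean control rats the ranges were -0.0017 to 0.072 (Mt-nd1), -0.068 to 0.11 (Mt-nd2), -0.0093 to 0.052 (Mt-co1), -0.11 to 0.0093 (Mt-co2), -0.096 to 0.040 (Mt-co3), -0.28 to 0.0037 (Mt-nd3) and -0.081 to 0.053 (Mt-nd4l). For the difference of contrasts they were -0.0015 to 0.12 (Mt-co2), -0.022 to 0.11 (Mt-co3), -0.17 to 0.12 (Mt-nd3) and -0.020 to 0.032 (Mt-cyb). In the lean pair 10 to 12 and in the obese pair 11 to 12 of the 15 genes were called when 1 rat was left out. Over all genes tested, 8206 to 8822 and 8244 to 8908 were called in these fits. With all rats it was 58.2 and 58.1% of the genes tested. The cause of these changes was not tested. Depth is unknown and 4 rats per injected group limit what could be detected.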
